A study of Mus musculus with 6 samples.

Results

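The levels of 36 genes of protein folding, collagen processing and stress signalling in the endoplasmic reticulum (ER) were taken from a comparison of embryonic fibroblasts from C57Bl/6NCr mice with Lasp1 intact (wild type, labelled Lasp1+/+) with fibroblasts in which it was disrupted (Lasp1 knockout, labelled Lasp1-/-). LASP1 is an actin-binding LIM and SH3 domain protein of focal adhesions. No treatment is named for either group, and the sources used here do not give embryo age, passage, the number of embryos or the way the gene was disrupted. Each genotype had 3 Illumina bead arrays, 6 in all. The members were listed by gene symbol, and each was represented by its brightest probe, taken on the mean log2 intensity of all arrays. Of the 36, 34 were measured, out of 19057 genes in all, and Dnajb11 and Fkbp10 were not analysed here. By role the measured genes were 14 chaperones and folding enzymes, 3 factors of the unfolded protein response and of degradation, 6 genes of ATF4 and its targets, 5 collagen-modifying enzymes and 6 genes of the translocon and of export.

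The ER is the compartment in which secreted and membrane proteins are folded, and fibroblasts load it heavily because they export collagen. Chaperones such as BiP and endoplasmin hold unfolded chains, disulfide isomerases pair their cysteines, and a separate set of enzymes hydroxylates procollagen and guards its triple helix before it leaves in coated vesicles. When unfolded protein accumulates, the sensors ATF6 and IRE1, the latter through the factor XBP1, raise the chaperones, while the kinase PERK acts through the transcription factor ATF4. ATF4 is also made when amino acids run short, and it raises genes for amino acid synthesis, uptake and tRNA charging together with the stress factors CHOP (Ddit3), ATF3 and TRIB3.

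Intensities were on a linear scale with a median of 1000 in every array. The lowest value was 593, so no value was near 0, and a probe near 1000 cannot be told from one without signal. The mean over the 6 arrays lay above the median of all probe means (993) for 32 of the 34 members and above 2 times that value for 28. Lasp1 was lower in the knockout at its brightest probe, with 135295, 148208 and 148809 in wild type and 51904, 51019 and 49770 in knockout (log2 difference -1.50 ± 0.07 SE). All 12 fibroblast markers lay above the median of all probe means. So did 5 of 7 epithelial markers (not Epcam and Krt5), 3 of 6 endothelial markers (not Pecam1, Cdh5 and Tie1) and 5 of 6 macrophage markers. Above 2 times that median lay 10 of 12 fibroblast markers, 2 of 7 epithelial, 1 of 6 endothelial and 2 of 6 macrophage markers. The labels do not say whether replicates are separate cultures or embryos, and p-values therefore measure only the spread among these samples, and that spread may be technical. In bulk RNA, fewer cells of a type and less RNA per cell cannot be told apart.

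ATF4 and its targets fell in the knockout, and the ER chaperones did not pass the test in either direction. Of the 6 genes of the ATF4 group, limma called 5 lower (Trib3, Chac1, Ddit3, Asns and Atf4) and Atf3 did not pass. Of the other 28 measured members, 1 was called, the degradation factor Herpud1, which fell. Over all genes, 6.28% were called, 4.08% lower and 2.19% higher, and among the 11985 genes brighter than the median of all probe means 6.47% were lower and 3.46% higher. In numbers these were 778 falls and 418 rises, and after quantile normalization 1083 falls and 1009 rises. The median log2 difference, knockout minus wild type, was -0.64 for the ATF4 group, -0.05 for the other 28 members and -0.02 for all genes. For the 11985 brighter genes it was -0.06. The 6 members called lower made up 17.6% of the 34, and no member was called higher by limma. At an unadjusted p under 0.05, 1 member was higher, as were 1079 of the 19057 genes. At that unadjusted threshold 9 members were lower, against 13% of all genes, and in 10 members all knockout arrays lay below all wild-type arrays, against 14% of all genes.

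**Figure D1:**
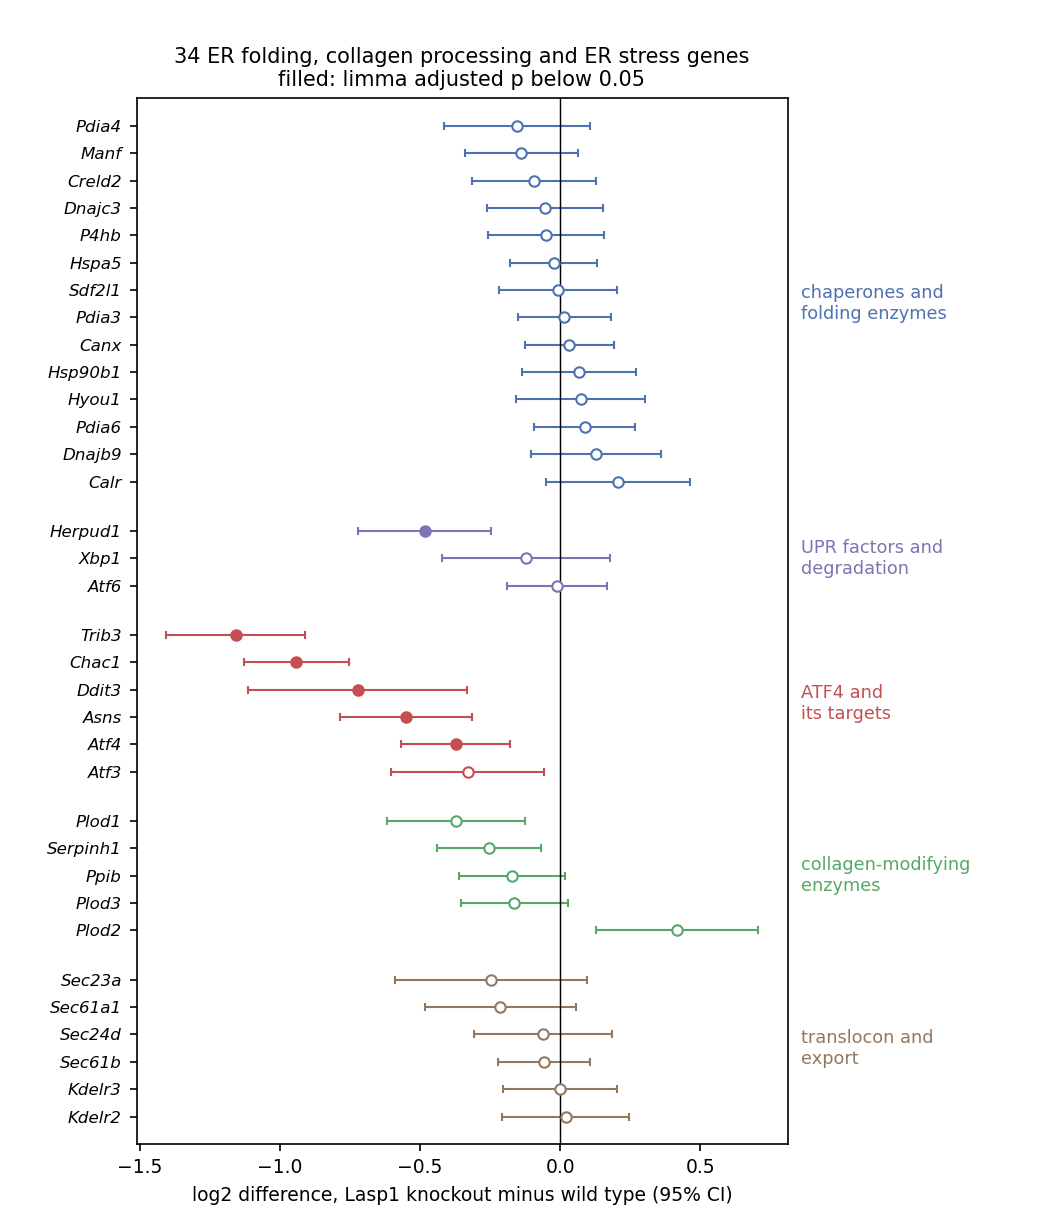
Log2 difference (knockout minus wild type) of the 34 measured genes with 95% confidence intervals from limma, by role, filled where the adjusted p was below 0.05. The ATF4 group lies between -1.16 and -0.33 and the chaperones between -0.15 and 0.21.

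Short stretches of the promoters are shown because several of the genes that fell and several chaperones matched different motifs there. The C/EBP-ATF response element, which ATF4 binds with a C/EBP partner, was searched as TGATGNAA, or TTNCATCA on the other strand, in RefSeq promoters of build GRCm38.p6 running from 250 bases before to 50 bases after the start of the gene. It was found in 3.97% of 32851 promoters and in 5 of the 29 members present in that table, namely Chac1, Asns, Atf3, Trib3 and Herpud1. The ER stress element, which ATF6 binds, was searched on both strands as CCAAT and CCACG with 9 bases of any kind between them. It was found in 0.119% of promoters and in 7 members, all of them chaperones or folding enzymes (Hspa5, Hsp90b1, Calr, Canx, Pdia6, Dnajc3 and Creld2). The related ER stress element II, searched on both strands as ATTGG and CCACG with 1 base of any kind between them, was found in 0.0365% of promoters, among them those of Herpud1 and Dnajb11. The UPR element, searched as TGACGTGG on both strands, was in 0.676% of promoters and in 3 members, Sec23a, Sec24d and Kdelr3. Where a member matched more than 1 motif, as Herpud1 did, the matches did not overlap. A match is a description of letters and not a measured binding site.

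The genes with the C/EBP-ATF element are given first, 5′ to 3′ on the strand of the gene, with the matched bases in capitals.
Chac1: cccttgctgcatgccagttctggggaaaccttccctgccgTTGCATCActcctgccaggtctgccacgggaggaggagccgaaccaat
Asns: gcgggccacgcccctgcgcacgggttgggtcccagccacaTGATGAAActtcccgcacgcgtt
Atf3: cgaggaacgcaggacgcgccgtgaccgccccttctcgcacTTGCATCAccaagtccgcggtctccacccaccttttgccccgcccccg
Trib3: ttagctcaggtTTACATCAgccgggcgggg
Herpud1: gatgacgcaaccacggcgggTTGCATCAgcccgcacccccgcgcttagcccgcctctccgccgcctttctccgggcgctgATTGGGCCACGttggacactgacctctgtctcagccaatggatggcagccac
The matched letters were TTGCATCA in Chac1, Atf3 and Herpud1, TTACATCA in Trib3 and TGATGAAA in Asns. The Chac1 stretch lies at chr2:119351009-119351096 on the plus strand, with the element from -193 to -186 relative to the start of the gene. The Asns stretch lies at chr6:7693210-7693272 on the minus strand (element from -23 to -16), and that of Atf3 at chr1:191183396-191183483 on the minus strand (element from -110 to -103). The Trib3 stretch lies at chr2:152344028-152344057 on the minus strand, and its element, from 15 to 22 after the start, is in the transcribed part. The Herpud1 stretch at chr8:94386297-94386428 on the plus strand holds both the C/EBP-ATF element (-112 to -105) and the ER stress element II (-52 to -42). Of these 5 genes limma called 4 lower in the knockout, all but Atf3. Ddit3 and Atf4, which were also called lower, are not among the 5, and 7 members were not in the promoter table.

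Chaperones whose promoters hold the ER stress element are shown for comparison, again with the match in capitals.
Hsp90b1: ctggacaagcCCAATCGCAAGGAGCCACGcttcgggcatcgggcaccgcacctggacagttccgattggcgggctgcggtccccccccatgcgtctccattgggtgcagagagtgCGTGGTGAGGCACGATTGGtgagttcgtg
Calr: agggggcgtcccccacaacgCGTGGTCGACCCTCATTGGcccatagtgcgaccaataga
Creld2: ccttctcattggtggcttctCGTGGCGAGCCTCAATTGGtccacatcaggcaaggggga
Hsp90b1, at chr10:86705523-86705666 on the minus strand, held it at both -212 to -194 and -107 to -89. Calr held it at -162 to -144 (stretch chr8:84847055-84847113, minus strand) and Creld2 at -126 to -108 (stretch chr15:88819500-88819558, plus strand). Limma called 0 of the 7 members with this element, with log2 differences from -0.09 in Creld2 to 0.21 in Calr and no unadjusted p under 0.05. Among the 7, the probes of Hspa5 (means of 1371 in wild type and 1351 in knockout) and Canx (937 and 959) lay near the array median and give little information. Across the array, 574 genes had the C/EBP-ATF element in a promoter, and 6.27% of them were called lower. The share was 4.08% for all genes and 6.47% for genes above the median of all probe means. Their median difference was -0.01, against -0.02 for all genes. Of 22 genes on the array with the ER stress element, 2 were called lower (9.09%), with a median difference of 0.05. Several of these 22, among them Calr4, Canx and Derl3, averaged below the median of all probe means.

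Trib3, a pseudokinase that restrains ATF4 and AKT signalling, showed the largest difference among the members. It read 40998, 46791 and 39632 in the wild-type arrays and 20801, 20242 and 16271 in the knockout arrays. The groups did not overlap and lay far apart. Its log2 difference was -1.16 ± 0.11 (SE), 2.23-fold lower, with a limma adjusted p of 0.00039, and ranked 46th from the largest fall among all genes. Its other probes gave -1.16 ± 0.12 and -1.19 ± 0.10, so all 3 probes of the gene moved alike.

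Chac1, an enzyme that breaks down glutathione and a marked target of ATF4, read 46677, 49259 and 45554 in wild type. In knockout it read 27058, 23443 and 23367, again without overlap. The difference was -0.94 ± 0.08 (SE), or 1.92-fold lower, with a limma adjusted p of 0.00026. The array holds 1 probe for it here. Trib3 and Chac1 kept their calls when any 1 of the 6 arrays was left out.

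Ddit3 encodes CHOP, a transcription factor that favours cell death under lasting ER stress. Its wild-type arrays read 45052, 69409 and 54258 and its knockout arrays 40967, 27824 and 33140. The highest knockout array, replicate 1, lay just below the lowest wild-type array, so the groups were apart by a small gap and the spread within each was wide. The difference was -0.72 ± 0.17 (SE; 1.65-fold lower; limma adjusted p = 0.041), and a second probe gave -0.65 ± 0.12. The wild-type and knockout arrays with the highest Ddit3, wild type replicate 2 and knockout replicate 1, were also those with the highest upper quartile of all probes (2330 and 2283, against 2018 to 2112 in the other arrays), and after quantile normalization, which makes the arrays' distributions equal, Ddit3 was still called (-0.62, limma adjusted p = 0.0045).

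Asns makes asparagine and is a long-known target of the amino acid response. It read 53859, 51245 and 44420 in wild type against 36992, 35204 and 30074 in knockout, with no overlap (log2 difference -0.55 ± 0.10 SE, limma adjusted p = 0.015). A second bright probe gave -0.70 ± 0.07, and the dimmest probe, with a wild-type mean of 1099, gave -0.15 ± 0.09 and was not called. Atf4 itself, the factor of the group, read 46270, 44391 and 38040 in wild type and 32957, 33356 and 32754 in knockout. The 3 knockout arrays were nearly equal and all below wild type, a difference of -0.37 ± 0.09 (SE; limma adjusted p = 0.036). Its second probe showed a larger difference, -0.78 ± 0.12. ATF4 is controlled mainly at translation, so its RNA does not give its protein level.

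Atf3, a stress-induced repressor, was the dimmest of the group. It read 2382, 2873 and 2181 in wild type and 2241, 1801 and 1861 in knockout. Knockout replicate 1 lay above wild type replicate 3, so the groups overlapped, and the difference of -0.33 ± 0.12 (SE) did not pass (limma adjusted p = 0.17, unadjusted p = 0.022). Over the 5 called genes of the group, 10 of 11 probes were called lower when tested over all probes.

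**Figure D2:**
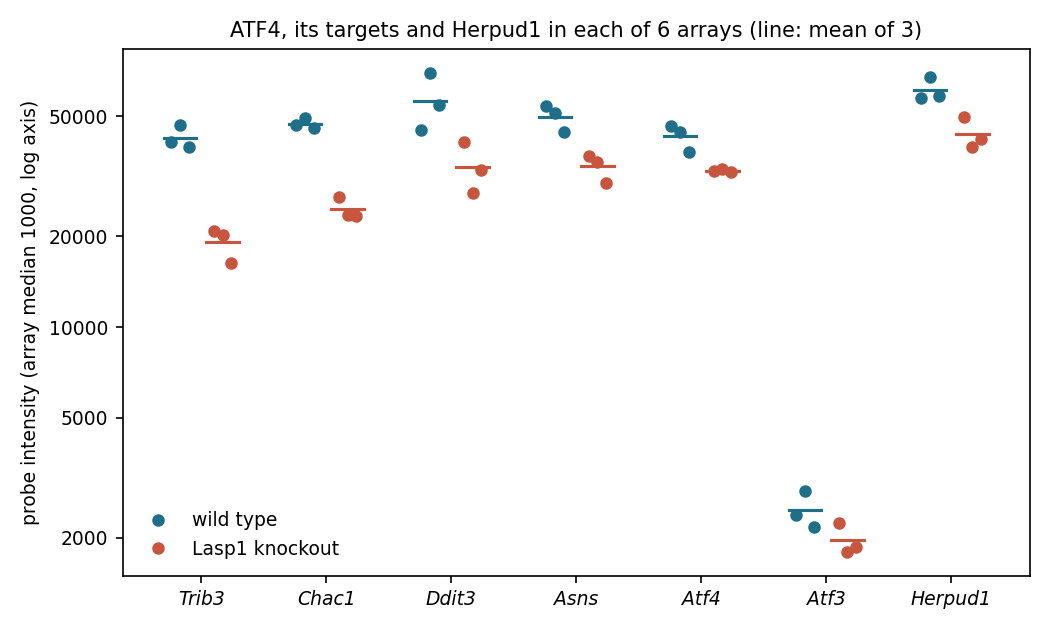
Probe intensity on a log axis for the ATF4 group and Herpud1 in each of 6 arrays, with a line at the mean of 3. In Trib3 and Chac1 the knockout points lie far below the wild-type points, in Atf3 the groups overlap.

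**Figure D3:**
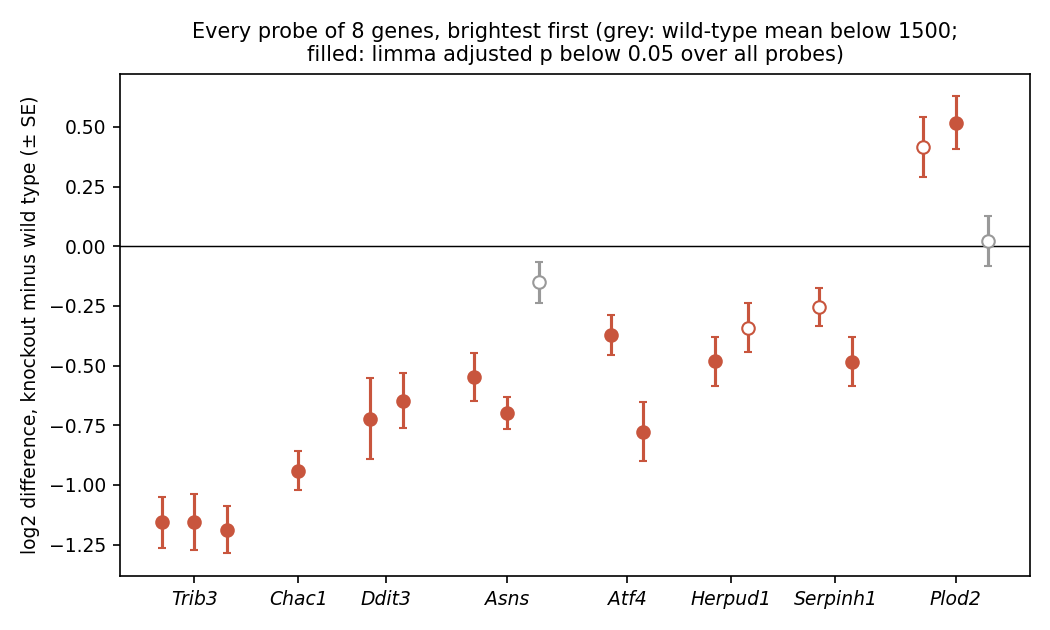
Log2 difference with its standard error for every probe of 8 genes, brightest probe first, grey where the wild-type mean was below 1500. All 3 probes of Trib3 lie between -1.19 and -1.16, and the bright probes of Ddit3, Asns and Atf4 are all below 0.

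The calls outside Trib3 and Chac1 depended on single arrays, while the size of the differences moved little. Asns was not called without knockout replicate 3 (limma adjusted p = 0.078). Ddit3 and Herpud1 each missed the threshold when wild type replicate 3 or either of knockout replicates 2 and 3 was dropped (limma adjusted p up to 0.17 and 0.14). Atf4 was called only when wild type replicate 3 was left out, and its limma adjusted p reached 0.15 in the other cases. With 1 array left out, the log2 difference ranged from -0.87 to -0.56 for Ddit3, from -0.63 to -0.46 for Asns, from -0.58 to -0.41 for Herpud1 and from -0.46 to -0.32 for Atf4. The ATF4 group had 2 falls when knockout replicate 3 was dropped, 3 when knockout replicate 2 was dropped and 4 when any other array was. After quantile normalization Atf3 passed (-0.31, limma adjusted p = 0.030) and Atf4 did not (-0.28, limma adjusted p = 0.081). A background correction gave 2 falls, Trib3 and Chac1, with differences of similar size for Asns (-0.56), Ddit3 (-0.73) and Atf4 (-0.38).

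**Figure D4:**
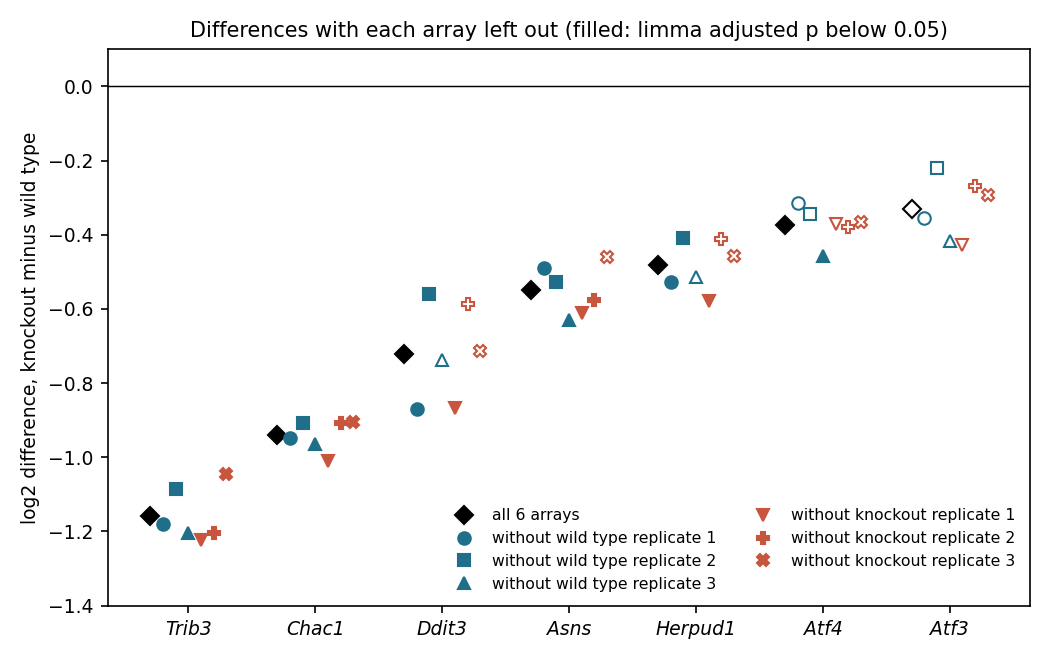
Log2 difference of the ATF4 group and Herpud1 with all arrays and with each array left out, filled where the limma adjusted p was below 0.05. Trib3 stays between -1.22 and -1.05 and Chac1 between -1.01 and -0.90, filled throughout.

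Among the factors of the unfolded protein response and of degradation, Herpud1 fell, and Xbp1 and Atf6 did not pass. Herpud1, a membrane protein that helps hand misfolded proteins to the proteasome, read 57245, 67525 and 58346 in wild type and 49722, 39480 and 42116 in knockout. The groups did not overlap (log2 difference -0.48 ± 0.10 SE, limma adjusted p = 0.027), and its second probe gave -0.34 ± 0.10 without passing over all probes (limma adjusted p = 0.11). Xbp1, the factor spliced by IRE1, read 37087 to 49511 in wild type and 35120 to 46882 in knockout. These ranges overlapped almost fully (-0.12 ± 0.13 SE, 95% interval -0.42 to 0.18), and the array does not tell the spliced from the unspliced form. Atf6 lay at the array median in both groups (1047 ± 85.9 and 1037 ± 5.38, SD, n = 3 each), so nothing can be read from its difference of -0.01.

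None of the 14 measured chaperones and folding enzymes was called by limma, and 0 had an unadjusted p under 0.05 in either direction. Their median log2 difference was 0.00, with 7 above and 7 below 0. Endoplasmin (Hsp90b1), the ER form of HSP90, read 72724, 61655 and 60689 in wild type and 66800, 71680 and 65382 in knockout. Knockout arrays lay within the wild-type range (0.07 ± 0.09 SE, 95% interval -0.13 to 0.27). Pdia3, the disulfide isomerase that works with calnexin and calreticulin, read 142641 to 159240 in wild type and 150319 to 157136 in knockout (0.01 ± 0.07, interval -0.15 to 0.18). P4hb, which is both a disulfide isomerase and the beta subunit of prolyl 4-hydroxylase, read 220899 to 265966 and 221613 to 249806 (-0.05 ± 0.09, interval -0.26 to 0.16). The intervals of these 3 bright genes reach no further than 0.27 from 0 on the log2 scale.

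Calreticulin (Calr), a calcium-binding lectin chaperone, had the most positive difference of the group. Its wild-type arrays read 17342, 17367 and 15516 and its knockout arrays 22283, 16296 and 19773, and the groups overlapped (0.21 ± 0.11 SE, limma adjusted p = 0.40). Pdia4, another disulfide isomerase, had the most negative, with 46042, 54081 and 40368 in wild type and 45229, 37729 and 42868 in knockout (-0.15 ± 0.12). Creld2 (-0.09 ± 0.10), which is induced by ER stress, and Dnajc3 (-0.05 ± 0.09), a co-chaperone that also restrains PERK, differed little. The same held for Sdf2l1 (-0.01 ± 0.09), a BiP-associated factor, for Dnajb9 (0.13 ± 0.10), a BiP co-chaperone that dampens IRE1, and for the disulfide isomerase Pdia6 (0.09 ± 0.08).

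Several central chaperones were not usefully measured. The probes of Hspa5 (BiP, the master chaperone of the ER) averaged 1371 in wild type and 1351 in knockout, those of Canx (calnexin) 937 and 959, Manf 967 and 876, and Hyou1, a BiP partner, 1457 and 1528. Intensities this near the array median give little information on these genes. Manf, a secreted ER stress protein, had knockout arrays entirely below wild type, but both groups lay in the background range. The statement on chaperones therefore rests on the 10 members of this group whose mean exceeded 2 times the median of all probe means.

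The collagen-modifying enzymes gave 0 calls in limma, with 1 higher and 2 lower at an unadjusted p under 0.05. Over all genes 13% were lower at that threshold and 1079 of 19057 were higher. Serpinh1, the chaperone dedicated to procollagen, was among the brightest probes and read 411227, 435647 and 441680 in wild type against 340589, 396043 and 345704 in knockout. All knockout arrays were below wild type (-0.25 ± 0.08 SE), without passing (limma adjusted p = 0.12), and a second, dimmer probe gave -0.48 ± 0.10 and did pass over all probes (limma adjusted p = 0.029). The highest intensity on any array was 557143, so the bright probe was near the top of the range, and its part in the smaller difference was not tested. Ppib, the prolyl isomerase cyclophilin B, read 42436 to 47182 in wild type and 36582 to 42784 in knockout, and the groups overlapped slightly (-0.17 ± 0.08).

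The lysyl hydroxylases did not share a direction. Plod1, which acts on the helical part of collagen, read 3538, 4344 and 3759 in wild type and 3420, 2802 and 2784 in knockout, all below wild type (-0.37 ± 0.11 SE, limma adjusted p = 0.087). When either wild type or knockout replicate 1 was dropped it was called lower (limma adjusted p = 0.049 and 0.037). Plod2, which hydroxylates the telopeptides and sets the kind of cross-link, read 4166, 5344 and 5564 in wild type and 7664, 6329 and 6076 in knockout, all above wild type (0.42 ± 0.13, limma adjusted p = 0.10). Its second probe read 3934, 4676 and 4430 against 7309, 5733 and 5701 and was called higher over all probes (0.52 ± 0.11, limma adjusted p = 0.031), and after quantile normalization the first probe was called too (0.51, limma adjusted p = 0.0023). Plod3, which also adds sugars to hydroxylysine, read 104114, 105937 and 104279 in wild type and 96748, 100894 and 83844 in knockout (-0.16 ± 0.08, limma adjusted p = 0.36). Arrays of Plod1, Plod2, Plod3 and Serpinh1 were each apart by genotype, a pattern seen in 21.3% of all genes.

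In the translocon and export group limma called 0 of 6 genes, and 0 had an unadjusted p under 0.05. Sec61a1, the pore of the translocon, read 24830, 31877 and 26450 in wild type and 27312, 21367 and 23004 in knockout (-0.21 ± 0.12 SE). Sec61b, its beta subunit, read 3688 to 3990 and 3587 to 3867 (-0.06 ± 0.07). Sec23a, a coat subunit of the vesicles that leave the ER, was the least even, with 8637, 6125 and 9739 in wild type and 6646, 6434 and 7219 in knockout. Its difference was -0.25 ± 0.15, and without wild type replicate 2, the lowest wild-type array, it was -0.44 and called (limma adjusted p = 0.017). Sec24d, the cargo-binding partner in the same coat, averaged 1724 and 1648 and was close to background. The receptors that return escaped chaperones from the Golgi, Kdelr2 and Kdelr3, were level across genotypes, with means of 12494 and 12714 for Kdelr2 (0.02 ± 0.10) and of 34786 and 34685 for Kdelr3 (0.00 ± 0.09, 95% interval -0.20 to 0.20).

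Set by array rather than by gene, the ATF4 group showed the widest gap between the genotypes among the roles. The mean over the 6 ATF4 genes of log2 intensity, each centred on its own mean over all arrays, was 0.31, 0.48 and 0.23 in the wild-type arrays and -0.19, -0.39 and -0.43 in the knockout arrays. For the 14 chaperones the same quantity lay between -0.03 and 0.02 in wild type and between -0.05 and 0.05 in knockout. For the collagen-modifying enzymes it ran from -0.04 to 0.13 in wild type and from -0.17 to 0.04 in knockout, with overlap. For the 3 UPR and degradation genes it ran from 0.03 to 0.17 in wild type and from -0.19 to 0.03 in knockout, and the ranges just met. For the 6 translocon and export genes it was 0.08, 0.03 and 0.03 in wild type and -0.02, -0.11 and -0.01 in knockout, which is a small separation without overlap. Markers of several cell types differed between the same arrays. For comparison, 4.08% of all genes were called lower and 2.19% higher. Among genes above the median of all probe means the shares were 6.47% and 3.46%. Of 12 fibroblast markers 5 fell, and their summed intensity was 999975 to 1160660 in the wild-type arrays and 815511 to 871244 in the knockout arrays. Of 7 epithelial markers 3 fell (Krt14, Krt8 and Krt19), with sums of 22805 to 28159 and 10070 to 10745. The brightest, Krt14, averaged 15557 in wild type and 2565 in knockout. Krt18 had a positive difference without passing (0.18 ± 0.08 SE, limma adjusted p = 0.25), and Cdh1 differed little (0.04 ± 0.08). Epcam and Krt5 stayed below the median of all probe means in both groups. The summed macrophage markers ran the other way, from 9115 to 10383 in wild type and from 11912 to 12507 in knockout, with 1 of 6 called (Lyz2, higher). Endothelial sums were 8265 to 8775 in wild type and 9135 to 9598 in knockout, with Emcn called higher. The differences of 4 of the 6 endothelial markers were below 0, among them Tek (-0.29 ± 0.08 SE, limma adjusted p = 0.076). Osteoblast sums were 3944 to 4053 in wild type and 4463 to 4842 in knockout, with 1 of 4 markers called (Ibsp, higher). Ibsp averaged 885 in wild type and 1578 in knockout, and 0 of the 4 lay above 2 times the median of all probe means. Skeletal muscle sums were 11121 to 12762 in wild type and 20544 to 21670 in knockout, with 1 of 5 markers called (Acta1, higher, 1.52 ± 0.14 SE). Myod1, Myog and Ttn lay near the array median in both groups. Adipocyte sums were 8925 to 9784 in wild type and 5806 to 6083 in knockout, with 1 of 4 markers called (Adipoq, lower, -2.02 ± 0.10). Pparg did not pass (-0.13 ± 0.10), and Fabp4 and Plin1 lay below the median of all probe means. Chondrocyte sums overlapped (47938 to 55729 and 53552 to 62388). Col2a1, the collagen chain of cartilage, rose from 1207 ± 21.8 to 18527 ± 3537 (SD, n = 3 each) and had the largest rise of all genes (3.92 ± 0.12 SE). The brightest of the 6 chondrocyte markers, Sox9, went the other way and was called lower (-0.47 ± 0.09 SE), and 4 did not pass. The part of these differences in the ATF4 result was not tested.

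The wider ATF4 and amino acid response was covered by a list of 43 further genes, of which 40 were measured. Limma called 20 lower and 1 higher, and 19 did not pass, against 4.08% lower and 2.19% higher over all genes. The median log2 difference was -0.35, and 35 of the 40 were below 0. Fgf21, a secreted hormone of fasting and stress, had the most negative difference in the list. It read 2943, 3775 and 3627 in wild type and 1432, 1303 and 1356 in knockout, the latter as near the array median as the probes set aside above. The measured fall was 2.52-fold (95% interval of the log2 difference -1.56 to -1.10, limma adjusted p = 0.00014), and the exact difference is not known. Slc7a3, a carrier of arginine and other cationic amino acids, read 12035, 13569 and 13374 in wild type and 6504, 5965 and 5454 in knockout (-1.12 ± 0.09, limma adjusted p = 0.00016). The neutral amino acid carrier Slc38a2 went the other way, with 22302, 37192 and 23383 in wild type and 47153, 49527 and 39607 in knockout (0.75 ± 0.18, limma adjusted p = 0.042). Leaving out any 1 array other than wild type replicate 2 ended this call.

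Falls were spread over the functions within that list, which were set out with the values already known. Of 12 aminoacyl-tRNA synthetases, which charge tRNAs with amino acids, 6 fell, among them the glutamyl-prolyl enzyme Eprs (-0.65 ± 0.11 SE) and the alanyl enzyme Aars (-0.51 ± 0.10). Cars, the cysteinyl enzyme, had a wild-type SD of 2683 on a mean of 4735 and no usable difference (0.55 ± 0.32). Of 10 measured genes of amino acid and one-carbon synthesis 5 fell, including the proline and ornithine pathway enzyme Aldh18a1 (-0.66 ± 0.11), the serine and folate enzymes Shmt2 (-0.58 ± 0.11) and Mthfd2 (-0.48 ± 0.09), and Phgdh (-0.46 ± 0.07), the first enzyme of serine synthesis. Of 6 measured amino acid transporters 3 fell and 1 rose, with the cystine carrier Slc7a11 at -0.38 ± 0.09. Of 12 stress factors and secreted signals 6 fell. They include the glycoprotein hormone Stc2 (-0.86 ± 0.07), the C/EBP partner Cebpg (-0.58 ± 0.10) and Ppp1r15a (-0.45 ± 0.11), the phosphatase subunit that ends the translational block. Cebpb, Nupr1 and Psat1 were bright and did not pass (0.01 ± 0.10, -0.09 ± 0.08 and -0.16 ± 0.11). Dropping a wild-type array left 21, 15 and 4 falls in the list for replicates 1, 2 and 3, and dropping a knockout array left 19, 8 and 5 for replicates 1, 2 and 3. Background correction left 3.

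**Figure D5:**
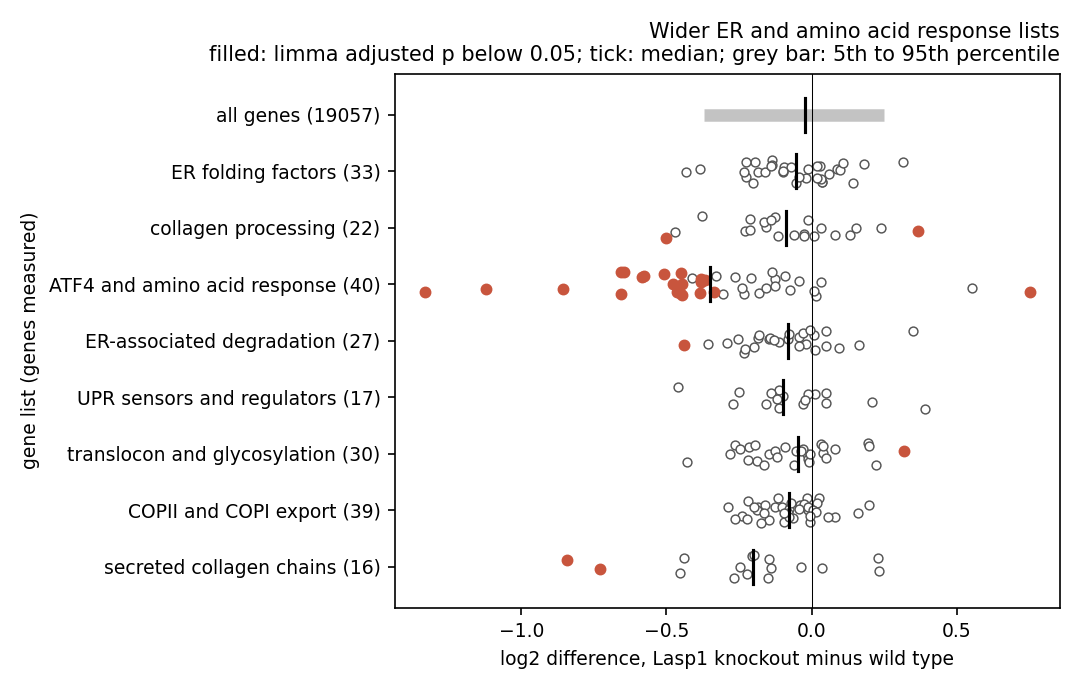
Log2 difference of each measured gene in 8 wider lists, with a tick at the median and called genes filled, beside the 5th to 95th percentile of all genes (-0.37 to 0.25). The median of the ATF4 and amino acid response list (-0.35) lies furthest to the left, and the filled points are mostly in that list.

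The rest of the secretory apparatus gave few calls. Of 33 further ER folding factors limma called 0, with 0 higher and 5 lower at an unadjusted p under 0.05 and a median of -0.06. Of 17 sensors and regulators of the unfolded protein response it called 0 (1 higher and 2 lower at an unadjusted p under 0.05, median -0.10), and of 39 genes of vesicle export 0 (0 and 4, median -0.08). Over all genes 13% were lower at that unadjusted threshold and 1079 of 19057 were higher. The median difference was -0.06 for all genes above the median of all probe means. Among 27 genes of ER-associated degradation, 1 fell (3.70%, against 4.08% of all genes) and 26 did not pass. The gene was Edem1, a lectin that draws misfolded glycoproteins out of the folding cycle, which read 2098, 1793 and 2342 in wild type and 1624, 1373 and 1581 in knockout (-0.44 ± 0.11 SE, limma adjusted p = 0.049). Dropping wild type replicate 1 or 3, or knockout replicate 2 or 3, ended this call. Among 30 genes of the translocon and of glycosylation 1 rose, the signal peptidase subunit Spcs3. This is 3.33%, against 2.19% of all genes and 3.46% of those above the median of all probe means. Spcs3 went from 12966 ± 457 to 16182 ± 536 (SD, n = 3 each), a log2 difference of 0.32 ± 0.07 (SE, limma adjusted p = 0.028). The call ended when any 1 array other than wild type replicate 2 was dropped.

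The list of further collagen-processing genes had 22 measured members, among which limma called 1 rise and 1 fall (median -0.09). This is 9.09%, against 6.28% of all genes and 9.94% of those above the median of all probe means. Both calls were catalytic subunits of prolyl 4-hydroxylase, the partners of P4hb, and a further subunit, P4ha1, did not pass (0.13 ± 0.08 SE, limma adjusted p = 0.47). P4ha2 rose, from 24512, 29153 and 24762 in wild type to 33317, 35612 and 31926 in knockout (0.37 ± 0.09 SE, limma adjusted p = 0.045), but missed the threshold when any 1 array other than wild type replicate 2 was dropped. P4ha3 fell, from 4511, 4454 and 5146 to 3586, 2880 and 3519 (-0.50 ± 0.10, limma adjusted p = 0.021), but not when wild type replicate 3 or either of knockout replicates 2 and 3 was dropped. Of 16 collagen chains, the cargo of these enzymes, 2 fell and 14 did not pass, with a median of -0.20. At an unadjusted p under 0.05 there were 8 lower and 0 higher, against 13% lower over all genes, and in 8 chains all knockout arrays lay below all wild-type arrays, against 14% of all genes. Col1a2 read 11950, 18818 and 14169 in wild type and 9492, 7008 and 8312 in knockout (-0.84 ± 0.17, limma adjusted p = 0.017), and Col6a2 37845, 60056 and 54638 against 33161, 27248 and 30089 (-0.73 ± 0.16, limma adjusted p = 0.027). Both missed the threshold when wild type replicate 3 or either of knockout replicates 2 and 3 was dropped, and 5 chains were called lower when wild type replicate 1 was.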

How the data were processed

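Biotin-labelled cRNA made from total RNA was hybridised to Illumina bead arrays, 3 per genotype, as the labels' protocols describe. The deposited table holds linear probe intensities, with a median of 1000 in each array, as the authors left them. The sources used here do not give scanner, software, background handling or bead summary. Arrays have no read depth, and their small number limits the precision.

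Gene names came from the supplied platform annotation. Of 45281 probes, 34885 had 1 gene symbol, 18 several and 10378 none, and all 34 measured members matched RefSeq (GRCm38.p6) by Entrez identifier. The probe with the highest mean log2 intensity stood for a gene, without a filter on low values. Log2 intensities went into limma 3.58.1 under R 4.3.3 (lmFit, then eBayes, 4 residual and 5.13 prior degrees of freedom), with genotype as the only term. P-values are two-sided and Benjamini-Hochberg adjusted over all 19057 genes (threshold 0.05), or over all named probes where a second probe is tested. The fit was tested on simulated data. Promoters come from the RefSeq table, which held 29 of the 36 members.

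The members and the wider lists were chosen with earlier results of these data known, so their counts are descriptions. Named outside the members were Lasp1 and, per wider list, up to 2 called rises and 2 called falls whose groups did not overlap and whose mean exceeded that of the median probe in at least 1 group. The ATF4 list genes named by function, Syvn1, markers and genes with a promoter motif were chosen after their values were seen. Alternatives were quantile normalization, median centring, normexp background correction (offset 50), only genes above the median, eBayes with trend and robust estimation, array weights, the mean of all probes, the second brightest probe, a block for the replicate number, and each array left out in turn.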

Additional observations from a re-analysis of the deposited data

How the results depend on the processing

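Trib3 and Chac1 were called lower under every alternative run for them (15 and 14), with log2 differences from -1.22 to -1.05 and from -1.01 to -0.84. The number of members called lower, 6 with all arrays, was 2 after background correction, 10 with array weights and 2 to 6 with 1 array left out. It was 3 with the replicate number as a replicate block, where all genes gave 179 rises and 236 falls. Same-numbered arrays did not deviate together (correlations of -0.45, -0.37 and 0.17), so the numbers are not treated as pairs. The number called higher was 1 (Plod2) after quantile normalization and 1 (Plod2) with the second brightest probe. Over all genes, 418 rises and 778 falls became 1009 rises after quantile normalization (1083 falls), 222 and 316 after background correction, 985 and 2282 with array weights, and 207 to 729 rises and 244 to 1217 falls with 1 array left out. Small differences of uncalled members changed sign. After quantile normalization P4hb was at 0.0058, Dnajc3 at 0.0568, Sdf2l1 at 0.0560, Creld2 at 0.00795 and Sec61b at 0.0129. With array weights Pdia3 was at -0.0156, Sdf2l1 at 0.0429 and Sec24d at 0.0627, and with the mean of all probes Sec61a1 was at 0.0299 and Kdelr2 at -0.0428. With the second brightest probe Pdia6 was at -0.0132, Dnajc3 at 0.0133, Sec61a1 at 0.273, Sec24d at 0.00364 and Kdelr2 at -0.106. With 1 array left out, values ran from -0.0370 to 0.00592 for Hspa5, -0.0336 to 0.0458 for Pdia3, -0.13 to 0.00205 for P4hb, -0.10 to 0.0356 for Dnajc3, -0.0546 to 0.0790 for Sdf2l1, -0.0276 to 0.13 for Hyou1, -0.0666 to 0.0509 for Atf6, -0.13 to 0.0482 for Sec24d, -0.0464 to 0.12 for Kdelr2 and -0.0471 to 0.0882 for Kdelr3. The cause of these changes was not tested. Signal over background limits Hspa5, Canx, Manf, Hyou1, Atf6 and Sec24d, whose probes lay near the array median.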

Other observations

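Among genes with the C/EBP-ATF element in a promoter, 36 were called lower and 4 higher by limma, and 29 of the 36 are on none of the lists used here. They were picked by the motif and by their values together, so they are a description. Chchd10, which encodes a mitochondrial intermembrane space protein, averaged 45832 ± 9764 (SD, n = 3) in wild type against 12657 ± 1300 (SD, n = 3) in knockout, a log2 difference of -1.84 ± 0.14 (SE, limma adjusted p = 0.00014). The matrix protein gene Matn4 differed by -1.75 ± 0.24 and the secreted lectin-binding protein gene Lgals3bp by -1.10 ± 0.17. Jdp2, a bZIP repressor related to ATF3, differed by -0.70 ± 0.09. The neurotrophin gene Bdnf was among the 4 that rose.

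ER stress element genes outside the members included Syvn1, the ubiquitin ligase of ER-associated degradation, which did not pass (0.35 ± 0.10 SE, limma adjusted p = 0.084). Its knockout arrays lay entirely above wild type, a pattern seen in 1398 of all 19057 genes and in 2 of 27 genes of ER-associated degradation. Its uncalled difference was opposite in sign to those of Edem1 and Herpud1, which serve the same degradation route.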
